A study of Mus musculus with 18 samples.

Results

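Mitochondrial ribosomal protein genes were examined in mouse T cells of the C57BL/6 strain. The members were all protein-coding genes of the RNA-seq table whose symbol is Mrpl or Mrps followed by a number, 77 of 43432 genes. 50 encode proteins of the large subunit, 26 encode proteins of the small subunit, and 1, Mrps36, is named for the ribosome but is known as a part of the 2-oxoglutarate dehydrogenase complex. 2 members named for the small subunit, Mrps30 and Mrps18a, are known as proteins of the large one and were counted there.

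RNA-seq was made from 8 libraries, 1 for each combination of actinomycin D or none, stimulated or resting, and CD8 or Th2. Actinomycin D blocks RNA synthesis. The methods describe 1 dose, added after stimulation for several lengths of time, and neither they nor the labels say which length these libraries had. Stimulated cells received PMA and ionomycin, drugs that mimic signalling from the antigen receptor, for 4 h before harvest, and resting cells received fresh medium. By the methods, actinomycin D followed these 4 h and was given for additional time. All cells had first been in culture for 5 days. By the methods they were activated with antibodies to CD3 and CD28 and then moved to dishes without them, in medium with IL-2. CD8 cells were also grown with IL-12, and Th2 cells, a CD4 T cell type, with IL-4 and an antibody to interferon gamma. All libraries came from cells described as UV crosslinked. The methods describe RNA-seq of RNA eluted from oligo-dT beads, and lysis with Trizol LS for cells given actinomycin D. They do not say whether the libraries with and without the drug were prepared alike. A difference in preparation could not be told apart from the drug. Cells for a preparation came from pooled mice. 10 further libraries, from CD8 and Th2 cells, stimulated and resting, were made by GCLiPP, which maps stretches of messenger RNA held by any protein, and were pooled by the authors into 1 list of peaks.

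The mitochondrial ribosome makes the proteins encoded by mitochondrial DNA, all of which are subunits of the oxidative phosphorylation complexes. Its RNAs come from mitochondrial DNA, but its proteins are encoded in the nucleus, made in the cytosol and imported. Some of them have a counterpart in bacterial ribosomes and others occur only in mitochondria. T cells that have been activated enlarge their mitochondria and raise mitochondrial translation.

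Values are the authors' normalised reads per gene, which are gene reads divided by 1 size factor per library, so they are not scaled for gene length. Depth was 24154849 to 31042504 gene reads per library. The T cell marker list was present in every library (7 of 7 genes past the filter, summed value 54758 to 97257), the Th2 list summed to 637 to 829 in CD8 libraries and 45778 to 127067 in Th2 libraries, and the CD8 list to 277766 to 515025 in CD8 libraries and 97241 to 155937 in Th2 libraries. Most of the CD8 sum was Gzmb, at 255366 to 476654 in CD8 and 92569 to 149171 in Th2 libraries. Cd8a was at 10516 to 15750 in CD8 and 1331 to 2401 in Th2 libraries, and Cd8b1 at 6269 to 9591 and 1402 to 2361. Prf1, Eomes and Tbx21 overlapped between the cell types. The part of these signals in the CD8 to Th2 difference was not tested. Every value compares shares of the RNA in a library, and a loss of RNA common to all genes would not be seen. In these bulk samples fewer cells of a type and less RNA per cell cannot be told apart.

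The members were moderately expressed and varied widely. Together they took 0.322% of the signal in stimulated CD8 cells with actinomycin D, 0.339% in resting CD8 cells with actinomycin D, 0.246% in stimulated Th2 cells with actinomycin D and 0.268% in resting Th2 cells with actinomycin D. Without the drug the shares, in the same order of cells, were 0.284%, 0.297%, 0.271% and 0.272%. The summed large subunit genes stood at 2.28 to 2.47 times the summed small subunit genes in every library. 75 of the 77 members reached the filter, a mean value of 50 over the 8 libraries, and were tested.

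The highest means belonged to Mrpl24 (2608 normalised reads), Mrpl30 (2544), Mrpl33 (2507) and Mrpl9 (2319.6), all of the large subunit. Values of Mrpl24 were 2826 to 3203 with actinomycin D and 2032 to 2424 without, and those of Mrpl9 were 1928 to 2702 and 1878 to 2589. These genes therefore overlap each other, and their order does not exceed the spread between libraries. Part of Mrpl24 is uncertain, since 23.3% of its 50-base words also occur in Rrnad1, its neighbour on the other strand. Per kilobase of annotated transcript, Mrpl30 was highest, with a level of 2625 normalised reads per kilobase.

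At the low end, Mrpl53 was listed at 0 in all 8 libraries. 88.0% of its exon bases are shared with Gm42688 on the same strand, so the 0 says only that no read was given to this gene. Mrpl23 had 10.9, 14.8, 5.71 and 14.7 normalised reads in the libraries with actinomycin D, against 45.0, 36.3, 58.9 and 49.8 without, in the order stimulated CD8, resting CD8, stimulated Th2 and resting Th2. Its groups did not overlap, but its mean of 29.5 is under the filter and it was not tested. 11.8% of its words occur elsewhere, mainly in the pseudogene Mrpl23-ps1. Mrps36 had 69.5, 58.1, 59.0 and 61.6 normalised reads with actinomycin D and 54.5, 57.0, 43.0 and 15.6 without. The groups did not overlap, but the change did not pass the test (log2 change 0.68 ± 0.37 SE, limma adjusted p = 0.187). Mrps33, the fourth lowest by mean, stood between 210 and 234 with the drug and between 131 and 169.5 without (log2 change 0.54 ± 0.19 SE, limma adjusted p = 0.0629).

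The comparison of actinomycin D with none asks which transcripts keep or lose their share of RNA once synthesis is blocked. The members did not move together. 9 rose, 13 fell and 53 did not pass the test (limma on log2(value + 1), 4 matched pairs, adjusted p under 0.05 over 10972 genes). Over all genes tested, 16.8% rose and 21.9% fell, and the members' 12% and 17.3% lie below both shares. The median log2 change was 0.09 for the members and 0.00 for all genes, and the members ranged between -1.64 and 0.96. By pair the members' median was 0.13 in stimulated CD8 cells, 0.26 in resting CD8 cells, -0.29 in stimulated Th2 cells and 0.14 in resting Th2 cells. In the large subunit 6 rose and 9 fell of 48, and in the small subunit 3 rose and 4 fell of 26. Members with a bacterial counterpart had 8 that rose and 6 that fell of 45, and those known only in mitochondria had 1 and 7 of 29. No test of the difference between these classes was run.

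**Figure D1:**
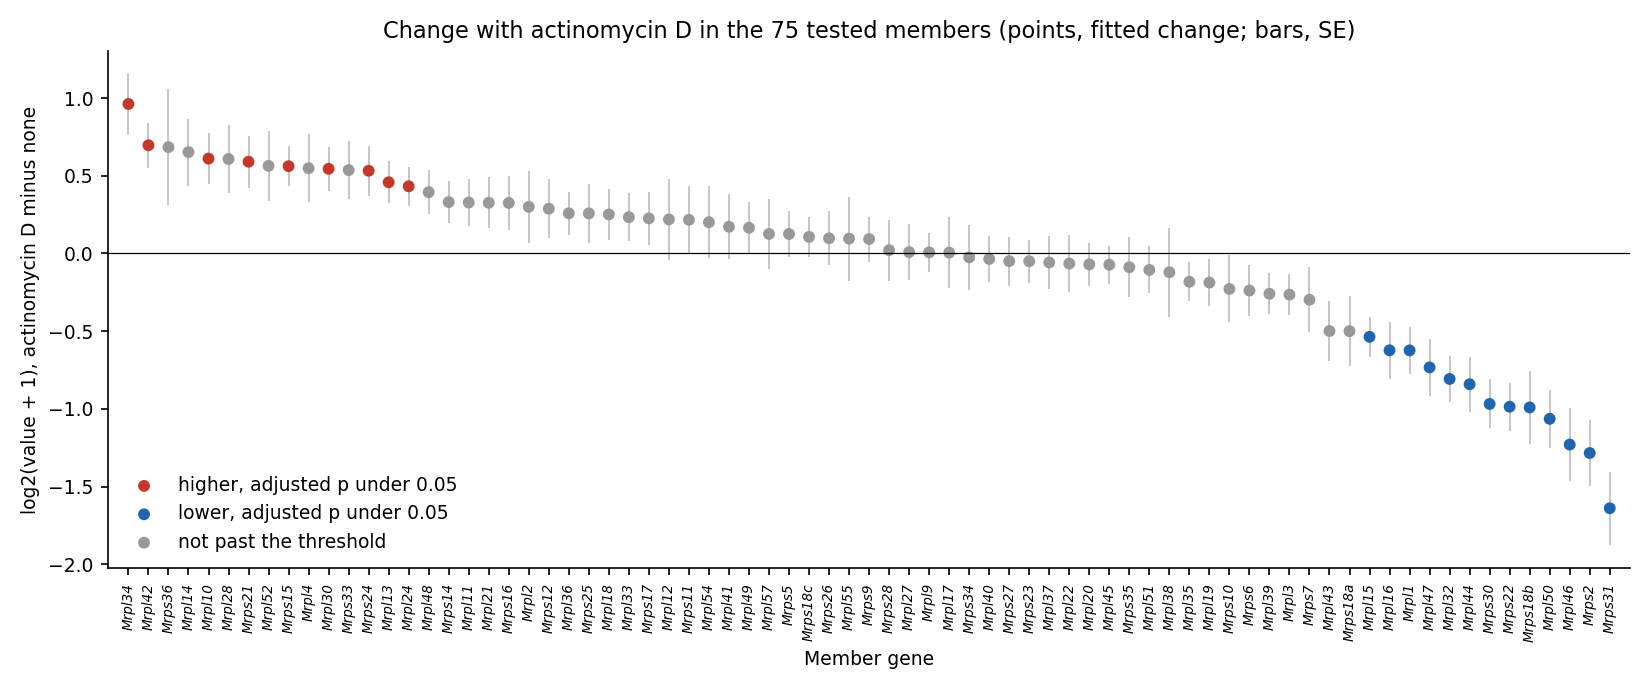
Fitted change with actinomycin D for each of the 75 tested members, as the log2(value + 1) difference on the vertical axis, with bars for the SE. The 9 members that rose are red and lie on the left, the 13 that fell are blue and lie on the right, and 53 in grey did not pass the threshold, all on the deposited scale, since 7 of the 9 change sign with cytosolic ribosomal protein scaling.

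Mrpl34, a large subunit protein with a bacterial counterpart, rose most. It had 365, 425, 285 and 385 normalised reads with actinomycin D (stimulated CD8, resting CD8, stimulated Th2, resting Th2), against 218, 203, 176 and 150.3 without. Every library with the drug was above every library without it, and the fitted change was 1.95-fold (log2 change 0.96 ± 0.19 SE, limma adjusted p = 0.012). Mrpl42, a large subunit protein known only in mitochondria, had 2045, 1893, 1577 and 1663 normalised reads with the drug, against 1234, 1463, 840.4 and 970.1 without. This is a 1.62-fold increase (limma adjusted p = 0.0139), and the groups did not overlap.

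Mrpl10, a protein at the base of the stalk that recruits translation factors, had 2146, 2422, 1710.0 and 1986 normalised reads with actinomycin D, against 1185, 1297, 1429 and 1478 without. Its rise of 1.53-fold (limma adjusted p = 0.0283) was larger in CD8 cells by value, but the difference between cell types was not tested. Mrps21, Mrps15 and Mrpl30, each with a bacterial counterpart, rose by 1.51-fold, 1.48-fold and 1.46-fold (limma adjusted p = 0.0348, 0.0179 and 0.0263), and in all 3 the libraries with the drug lay above those without. Mrps24, Mrpl13 and Mrpl24 were the other members that rose, with log2 changes of 0.53, 0.46 and 0.43.

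The members that fell changed by more. Mrps31, a small subunit protein known only in mitochondria, had 345, 162, 226 and 136 normalised reads with actinomycin D, against 664, 669.7, 642 and 577 without. The groups did not overlap, and the fold was 3.11 (log2 change -1.64 ± 0.24 SE, limma adjusted p = 0.00465). Mrps31 stood highest in the stimulated library of each cell type when the drug was given, while its untreated values differed little. Mrps2, a small subunit protein with a bacterial counterpart, had 647, 614, 487 and 464 normalised reads with the drug, against 1318, 1085, 1845 and 1201 without (fold 2.43, limma adjusted p = 0.00675).

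Mrpl50 of the large subunit had 771, 764, 562 and 519 normalised reads with actinomycin D, against 1370.2, 1273, 1739 and 1085 without (fold 2.09, limma adjusted p = 0.00842). Mrps22 and Mrps18b of the small subunit fell by a fold of 1.98 and 1.99 (limma adjusted p = 0.00599 and 0.0203). Mrps22 lay at 334 to 528 with the drug and 724 to 926 without. Mrps18b lay at 317 to 452 with the drug and 544 to 1046 without, but 30.2% of its words also occur in the overlapping gene Gm16279. Mrps30 had 1199, 879, 729.9 and 467 normalised reads with the drug, against 1831, 1728, 1458 and 1144 without. It fell in every pair (fold 1.96, limma adjusted p = 0.00674), though its groups overlapped. Mrps18a, the other large subunit protein with a small subunit name, did not pass the test (log2 change -0.50 ± 0.23 SE, limma adjusted p = 0.123). The remaining members that fell were Mrpl44, Mrpl32, Mrpl47, Mrpl1, Mrpl16 and Mrpl15, with log2 changes between -0.84 and -0.54.

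**Figure D2:**
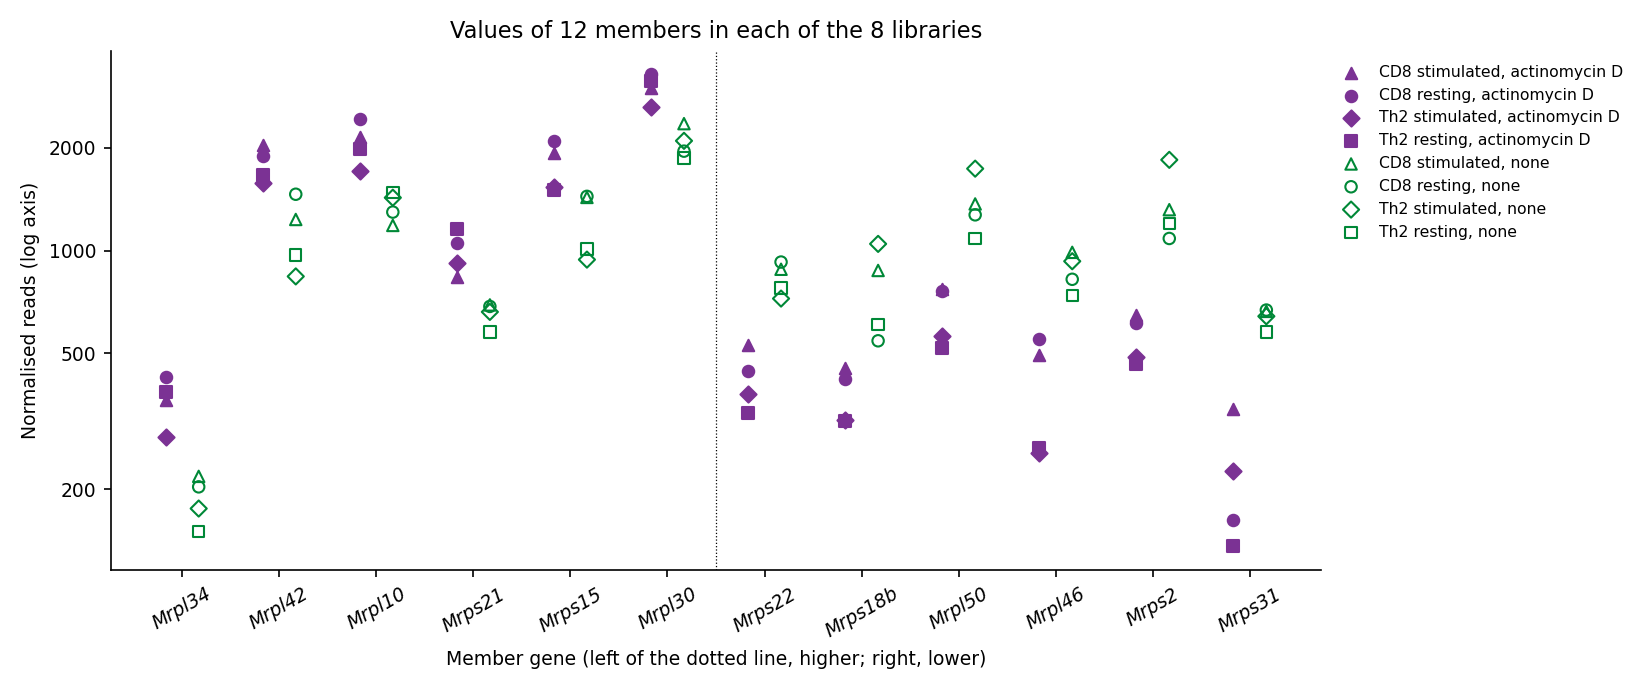
Normalised reads (log axis) of the 6 members with the largest rise and the 6 with the largest fall with actinomycin D among those that passed the test, in each of the 8 libraries, with filled symbols for the drug, open symbols for none and 1 symbol shape for each cell type and state. In all 12 the filled and open symbols do not overlap, as for Mrps31 with 136 to 345 against 577 to 669.7.

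Directions depended on how the libraries were scaled. With the summed cytosolic ribosomal protein genes held equal, the median log2 change of all genes became -0.63 and that of the members -0.54, and 44 genes rose and 4508 fell, against 1842 and 2403 as deposited. 27 members then fell and none rose, and 7 of the 9 members that had risen changed sign, all but Mrpl34 and Mrpl42. Quantile normalisation gave 2597 and 2012 genes and 19 and 10 members. In place of 9 rises, testing every gene of a mean above 0 gave 5, with 13 falls. edgeR gave 1 rise and 10 falls, and DESeq2 gave 4 and 13, both without the treated stimulated CD8 library. limma without that library gave 1 and 10, so the edgeR and DESeq2 counts do not show the method alone. The 9 rises also rested on most of the libraries. Between 0 and 2 members rose when stimulated or resting CD8 cells or resting Th2 cells, with or without the drug, were left out, and 11 or 10 rose without the untreated or the treated stimulated Th2 library. 7 members fell without either resting Th2 library, and 9 to 11 fell without any other. Summed myeloid markers, a list of 5 genes, were 276 to 479 with the drug and 114 to 177 without, and their part in these changes was not tested. Cd68 was the largest part of that sum in every library, at 189 to 414 with the drug and 73.2 to 86.1 without. Lyz2 was at 52.3 and 131.5 in stimulated and resting Th2 cells with the drug, against 22.7 and 54.5 without. In the CD8 libraries Lyz2 was at 2.98 and 1.97 with the drug and at 0 without. Itgam was at 32.8 to 86.4 with the drug and 18.7 to 29.6 without, and Csf1r and Cd14 were at most 23.8 in any library.

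The members that fell tended to have longer coding regions. Their median was 873 coding bases, against 501 for those that rose and 568.5 for those that did not pass. The median 3′ UTR was 1170 bases in those that fell, 271 in those that rose and 446.5 in those that did not pass. The ranges, in the same order, were 101 to 3253, 15 to 878 and 28 to 6651 and overlap. Median GC content of the transcript was 45.8% in those that fell and 52.5% in those that rose. Across 74 annotated members, Spearman's rho between the log2 change and the coding length was -0.48 and Pearson's r was -0.47. For the length of the 3′ UTR they were only -0.25 and -0.09. These values are a description, because these genes share the same libraries.

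Many members lie head to head with another gene, their start sites within 1000 bases on opposite strands. This was so for 33 of 76 annotated members (43.4%) and for 1860 of 10464 tested protein-coding genes (17.8%), and no test was run on the difference. 1 such pair, chosen after its values were seen, consists of members only. Mrpl46 (ENSMUSG00000030612, chr7:78775236-78783531, minus strand, mm10) and Mrps11 (ENSMUSG00000030611, chr7:78783119-78792989, plus strand) overlap at their 5′ ends by the GENCODE annotation, where 12.2% of the exon bases of Mrpl46 and 7.97% of those of Mrps11 are shared. The 2 promoter windows, from 250 bases before to 50 after each RefSeq start on GRCm38.p6, share 141 bases. By the RefSeq starts of these windows the 5′ ends do not overlap, so the 2 annotations differ on this point. They are shown because these 2 genes start next to each other and differed in their change with actinomycin D. Capitals mark matches to the GC box GGGCGG, the TATA box TATAAA and the YY1 motif AAGATGGCG, read on either strand. The Mrpl46 window is chr7:78783040-78783339 on the minus strand and the Mrps11 window is chr7:78782881-78783180 on the plus strand.
Mrpl46: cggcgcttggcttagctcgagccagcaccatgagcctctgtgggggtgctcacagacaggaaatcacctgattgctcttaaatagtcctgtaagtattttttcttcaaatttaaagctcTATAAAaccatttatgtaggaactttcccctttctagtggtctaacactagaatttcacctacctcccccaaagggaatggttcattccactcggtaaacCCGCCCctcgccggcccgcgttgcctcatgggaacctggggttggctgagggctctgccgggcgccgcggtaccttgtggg
Mrps11: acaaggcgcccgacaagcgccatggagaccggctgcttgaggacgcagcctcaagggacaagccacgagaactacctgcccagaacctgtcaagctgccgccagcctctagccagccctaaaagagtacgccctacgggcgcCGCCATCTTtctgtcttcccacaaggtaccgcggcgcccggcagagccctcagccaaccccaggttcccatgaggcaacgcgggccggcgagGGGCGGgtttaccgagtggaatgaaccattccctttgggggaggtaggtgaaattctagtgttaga

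The GC box at chr7:78783115-78783120 is the same bases in both windows. Mrpl46 had 496, 550.2, 256 and 264 normalised reads with actinomycin D (stimulated CD8, resting CD8, stimulated Th2, resting Th2), against 989, 824, 931 and 739 without. It fell in every pair, by a fold of 2.34 (log2 change -1.23 ± 0.24 SE, limma adjusted p = 0.0108), and its groups did not overlap. Mrps11 had 488, 621, 324 and 489 normalised reads with the drug, against 488, 391, 408 and 339 without. Its groups overlapped, and its change did not pass the test (log2 change 0.22 ± 0.21 SE, limma adjusted p = 0.449). The libraries were made with a stranded kit, but the sources used here do not say whether counting used strand, and the shared exon bases may have been counted for either gene.

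**Figure D3:**
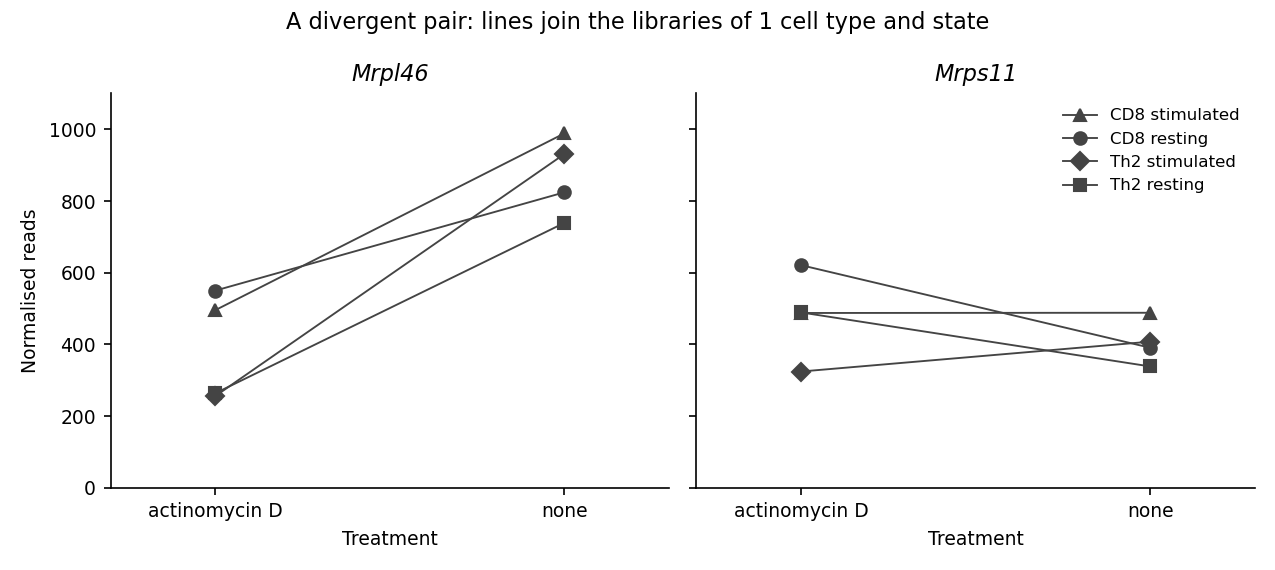
Normalised reads of Mrpl46 and Mrps11 with actinomycin D (left of each panel) and without it (right), with 1 line for each cell type and state. All 4 Mrpl46 lines are lower with the drug, with 256 to 550.2 against 739 to 989, and the Mrps11 lines have no common direction.

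The pairs named next are those in which a member and a partner that is no member both passed the test. They did not share 1 direction. Mrpl50 and Zfp189, a zinc finger gene, both fell (log2 change -1.06 and -1.94, limma adjusted p = 0.00842 and 0.00236), as did Mrps18b and Ppp1r10 (-0.99 and -3.01, limma adjusted p = 0.0203 and 0.00137). Mrpl47 fell by 0.73 on the log2 scale, whereas Ndufb5, a subunit of respiratory complex I, rose by 0.45 (limma adjusted p = 0.0235 and 0.0301). However, 24.2% of the exon bases of Mrpl47 are shared with genes on the other strand, Ndufb5 among them. Of the 68 members with a promoter window, 25 held the ETS motif CCGGAAG (36.8%, against 22.1% of tested protein-coding genes), 8 the YY1 motif (11.8% against 4.02%) and 7 the NRF1 core CGCATGCG (10.3% against 4.84%). The GC box was in 50% of members and 70.5% of those genes, the CCAAT box in 39.7% and 43.5%, and TATAAA in 7.35% and 7.96%. Both strands were searched, over all windows of a gene, and a match is no evidence of binding.

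Other genes of mitochondrial translation were compared with actinomycin D in the same fit, and no test of a difference from the members was run. Of 22 assembly factors, 9 fell and 1 rose (median log2 change -0.28). The largest falls were those of Rnmtl1 and Ftsj2, methyltransferases of mitochondrial ribosomal RNA, and Ddx28, an RNA helicase, at -3.36, -3.23 and -1.80. Of 12 genes of mitochondrial transcription and RNA maturation 6 fell and none rose, led by Tefm, the mitochondrial transcription elongation factor, at -2.25. Of 15 tested translation factors 2 fell, Mtif3 at -1.95 and Mtrf1l at -1.33, and Gfm2, a ribosome recycling factor, rose by 0.75. Of 17 mitochondrial aminoacyl-tRNA synthetases 3 rose and 2 fell, with the highest log2 change in Lars2 (1.297) and the lowest in Pars2 (-1.56). None of 6 mitoribosomal proteins with other names passed the test, although 1 had an unadjusted p under 0.05. Of the genes that the ribosome serves or resembles, 37 nuclear-encoded oxidative phosphorylation genes rose and 4 fell of 89 (median 0.49), and 28 cytosolic ribosomal protein genes rose and 13 fell of 74 (median 0.59). These directions are on the deposited scale, and the same shift of -0.63 applies to them under cytosolic ribosomal protein scaling.

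Stimulation without actinomycin D asks how these transcripts change with signalling. No member passed the test with limma, edgeR or DESeq2, and 11 of 75 had an unadjusted p under 0.05 with limma, against 4086 of 10972 genes in all. Over all genes, 6.59% rose and 4.69% fell. The members were nonetheless mostly higher by value. 62 of 75 had a positive log2 change, and 51 were higher in the stimulated library of both cell types, against 5786 and 4528 of 10972 genes in all. The median log2 change was 0.19 for the members, against 0.03 for all genes. By cell type the members' median was 0.17 in CD8 cells and 0.24 in Th2 cells. This fit has 1 residual degree of freedom. Mrps18b, chosen after its values were seen, had the largest change, with 875 and 1046 normalised reads in stimulated CD8 and Th2 cells, against 544 and 607 in resting CD8 and Th2 cells (log2 change 0.73, limma adjusted p = 0.0529). With cytosolic ribosomal protein genes held equal the genes split into 525 that rose and 3058 that fell, against 723 and 515 as deposited, 5 members fell and the members' median became -0.21. With quantile normalisation 552 genes rose and 587 fell, and no member passed.

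Cytosolic ribosomal protein genes rose with stimulation in 24 of 74 cases (median log2 change 0.59), and 2 of 89 oxidative phosphorylation genes rose (median 0.21). Over all 8 libraries, with and without the drug, stimulation changed no member by limma. edgeR and DESeq2, without the treated stimulated CD8 library, also called none. With limma 2 of 75 had an unadjusted p under 0.05, against 1610 of 10972 genes in all. Over all genes, 0.118% rose and 0% fell in that fit. The members' median log2 change was 0.03, against 0.01 for all genes.

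The interaction of stimulation with actinomycin D asks whether the change with stimulation differs between libraries with and without the drug. By the methods the drug was added after 4 h of stimulation, so synthesis was not blocked during those 4 h. Loss of RNA after that and additional time in culture cannot be told apart here. 1 member, Mrpl28, a large subunit protein with a bacterial counterpart, passed with a lower value, while 7.06% of all genes were higher and 7.44% were lower. Mrpl28 had 1256 normalised reads in stimulated and 1569 in resting CD8 cells with actinomycin D, and 818 in stimulated and 1337 in resting Th2 cells with it. Without the drug it had 1012 in stimulated and 774 in resting CD8 cells, and 796 in stimulated and 639 in resting Th2 cells. It was thus lower with stimulation under the drug and higher with stimulation without it, in both cell types (interaction -0.87 ± 0.21 SE on the log2 scale, limma adjusted p = 0.0387). The call was lost without any one of stimulated CD8 with the drug (adjusted p = 0.0553 by limma), resting CD8 with it (0.128) or without it (0.136), stimulated Th2 with it (0.156), and resting Th2 with it (0.19) or without it (0.11). 14 members were lower and 1 higher without the untreated stimulated CD8 library, and without the untreated stimulated Th2 library Mrps31 was higher beside Mrpl28. The members' median interaction was -0.28, against -0.01 for all genes. It was -0.36 for oxidative phosphorylation genes (14 of 89 lower, none higher) and -0.86 for cytosolic ribosomal protein genes (34 of 74 lower, none higher). Under cytosolic ribosomal protein scaling the medians of the members and of all genes were 0.40 and 0.67. Then 4613 genes were higher and 291 lower, against 775 and 816 as deposited, and 15 members were higher.

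Between CD8 and Th2 cells, 7 of 75 members (9.33%) were higher in CD8 cells and none was lower (limma, adjusted p under 0.05), where 9.97% of all genes were higher and 11.5% were lower. The share of members called higher is thus no larger than that of all genes. 66 of 75 members had a positive log2 difference, and 36 were higher in CD8 cells in all 4 matched pairs of libraries, against 5651 and 2924 of 10972 genes. The median log2 difference was 0.28 for the members and 0.02 for all genes. Among the pairs the members' median was 0.42 in stimulated cells with actinomycin D, 0.07 in stimulated cells without it, 0.37 in resting cells with it and 0.21 in resting cells without it. In stimulated cells without the drug the large subunit genes had a median of -0.0078 and the small subunit genes one of 0.077.

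Mrps30 differed most. It had 1831, 1199, 1728 and 879 normalised reads in CD8 cells, against 1458, 729.9, 1144 and 467 in Th2 cells (stimulated without and with the drug, then resting without and with it). CD8 cells were higher in each pair, by 1.56-fold (log2 difference 0.64 ± 0.14 SE, limma adjusted p = 0.0191). Mrpl16, a large subunit protein with a bacterial counterpart, had 1128, 895, 1002 and 817 normalised reads in CD8 cells, against 998, 488, 726 and 406 in Th2 cells (1.55-fold, limma adjusted p = 0.0334). Mrpl39, known only in mitochondria, had 1460.3, 1205, 1289 and 1173 normalised reads in CD8 cells, against 1014, 861, 947 and 722 in Th2 cells. This 1.45-fold difference had the smallest adjusted p of the members (0.0136, limma), and the groups did not overlap.

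Mrps15, Mrpl15, Mrpl40 and Mrpl13 were higher in CD8 cells by 1.39-fold, 1.39-fold, 1.37-fold and 1.35-fold, each in all 4 pairs. At the other end, Mrps25 had the lowest log2 difference of the members, -0.22 ± 0.17 SE (limma adjusted p = 0.426). It had 605, 704, 556 and 807 normalised reads in CD8 cells, against 905, 740.3, 592 and 876 in Th2 cells, but 68.2% of its words also occur in Nr2c2 on the other strand. Mrpl24 followed at -0.11 ± 0.11 SE (limma adjusted p = 0.526). Of other lists, 7 of 89 oxidative phosphorylation genes were higher in CD8 cells and none lower (median 0.21), against 1 and 0 of 74 cytosolic ribosomal protein genes (median -0.02). Of 6 mitoribosomal proteins with other names 2 were higher and none lower (median 0.36), Gadd45gip1 and Chchd1 at 0.70 and 0.45. The assembly factor Noa1 was higher at 0.84. Lrpprc and Gfm1, a regulator of mitochondrial messenger RNA and an elongation factor, were higher at 0.58 and 0.49. Among mitochondrial aminoacyl-tRNA synthetases, Iars2 was higher in CD8 cells at 0.39, and Tars2 and Fars2 were lower at -0.79 and -0.68. Hsd17b10, a subunit of mitochondrial RNase P, was also lower, at -0.82.

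**Figure D4:**
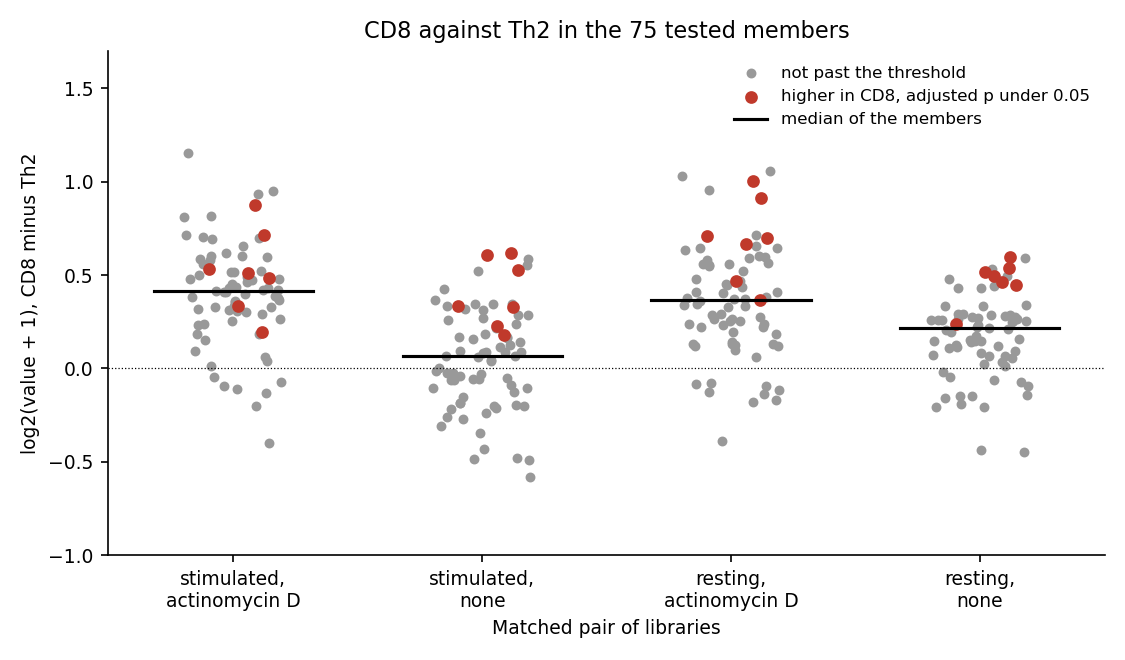
Difference of log2(value + 1), CD8 minus Th2, in each of the 4 matched pairs of libraries, with 1 point for each of the 75 tested members, red for the 7 that passed the test and a bar at the median. All red points lie above 0, and the medians are 0.42, 0.07, 0.37 and 0.21 from left to right.

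The count depended on the processing, although the direction did not. No member was called with cytosolic ribosomal protein scaling or with edgeR, which was run without the treated stimulated CD8 library. 15 were called with quantile normalisation and 23 with each matched condition as a block, in every case higher in CD8 cells. None was called without the treated resting Th2, treated resting CD8 or treated stimulated CD8 library, 1 without untreated resting CD8, 2 without untreated resting Th2 and 12 without untreated stimulated Th2. Summed B cell markers were 136 to 231 in CD8 libraries and 731 to 858 in Th2 libraries, and their part in the difference was not tested. Of 4 stromal markers, Col1a1, Col1a2 and Pdgfra were at or near 0 (at most 32.0), and Pecam1, which endothelial and some blood cells also express, had 318 to 776 normalised reads in CD8 libraries and 1166 to 1905 in Th2 libraries.

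GCLiPP peaks show where proteins held these transcripts. The list contains 27729 peaks of 70 bases, which the authors describe as called in 3′ UTRs, with a score from 13 to 22514. By the GENCODE annotation 100 of the 105 peaks of members lay in a 3′ UTR, 1 in coding sequence (Mrps33) and 1 outside the exons of its gene (Mrps31), and 3 of Mrpl33 could not be placed. The score is a whole number whose definition is not given in the sources used here. 51 of the 77 members had a peak (66.2%), with 105 peaks in all, against 6474 of 10485 tested protein-coding genes (61.7%). Among genes between the members' own 10th and 90th percentile of untreated level, 38 of 59 members (64.4%) and 2616 of 4392 protein-coding genes (59.6%) had one. Cytosolic ribosomal protein genes had a peak in 73 of 74 cases and oxidative phosphorylation genes in 73 of 89. The median score of a member's peak was 24, as in the whole list, and 215 for cytosolic ribosomal protein genes. Large and small subunit genes differed little in the share with a peak, 66.0% and 65.4%.

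The 4 members with the highest summed score were Mrpl36 (368 over 2 peaks), Mrpl10 (269 over 5), Mrpl17 (260 over 5) and Mrpl12 (204 over 6), all large subunit proteins with a bacterial counterpart. Mrpl12 and Mrpl10 belong to the stalk. The central 30 bases of the strongest peak of each are shown because these 4 members had the highest summed scores, although single peaks of other members scored above the 67 of the Mrpl12 site. They come from GENCODE M21 transcripts (GRCm38, the build of the files), and each lies in the 3′ UTR. Capitals mark the run GCTGTG, chosen after these sequences were seen. The sites are chr13:73331847-73331876 (plus strand, score 270), chr11:97048912-97048941 (plus, 174), chr7:105809527-105809556 (minus, 104) and chr11:120488674-120488703 (plus, 67).
Mrpl36: ggagaaggattgttacagtaGCTGTGtatg
Mrpl10: acccttcgggtgtgctggGCTGTGgaaaga
Mrpl17: gttggaggggaggggatcttGCTGTGtaat
Mrpl12: aaaatatactattcaggctggggtgttcaa

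GCTGTG was no more common in the members than elsewhere, with 9 of 100 member peaks that had a sequence and 9.74% of 25741 peaks of the whole list. The polyadenylation signals AATAAA and ATTAAA were in 13% and 9% of member peaks, against 6.57% and 3.00% of all peaks. Runs of TTTTT were in 4% against 12.8%, the AU-rich pentamer ATTTA in 6% against 7.93%, and CCCC in 12% against 22.4%. Searches were on the transcribed strand, and peaks of 1 transcript may overlap. No test was run on these shares.

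Summed peak score did not follow RNA level among the 51 members with a peak. Across them, Spearman's rho between summed score and mean untreated level was 0.04, as a description. Among tested members the median untreated level was 927 in those with a peak and 818 in those without. Mrpl36 had a level of only 649 to 783 normalised reads without actinomycin D, whereas Mrpl30 and Mrpl13, with untreated means of 2069 and 1734, had no peak. Of the members that changed with the drug, those that rose had a median of 1 peak and those that fell also 1. Mrpl10 and Mrps18b combined several peaks (5 and 4) with opposite changes, and neither Mrpl42 nor Mrpl46 had a peak.

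**Figure D5:**
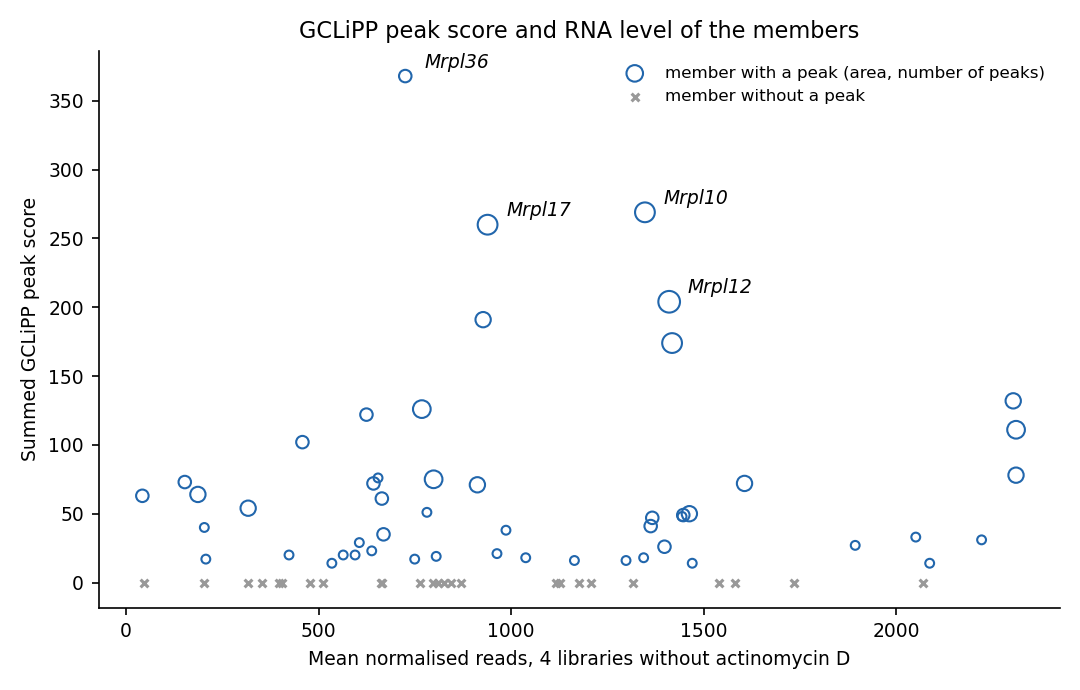
Summed GCLiPP peak score of each member (vertical axis) against its mean normalised reads in the 4 libraries without actinomycin D, with circle area for the number of peaks and crosses for members without a peak. Mrpl36, with 368, stands highest at a moderate level, and several members of higher level have no peak.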

How the data were processed

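Each condition had 1 RNA-seq library, grouped by its labels. The authors aligned RNA-seq reads with STAR and GCLiPP reads with Bowtie2 to mm10 and pooled all GCLiPP experiments for peak calling. The deposited RNA-seq signal is gene reads divided by 1 factor per library, although the methods describe FPKM. In every library 100% of values were whole multiples of 1 step within 0.01 read. A second deposited table, with the same values and the authors' own fold changes and p-values, was not used. The deposited peak score is the authors' own.

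limma-trend (limma 3.58.1, R 4.3.3) was applied to log2(value + 1) of 10972 genes with a mean of at least 50, so low genes' changes are understated. Actinomycin D was fitted with matched condition as a block, the other contrasts additively. Matched libraries served as replicates, so p-values reflect no more than how these libraries scatter, which may be technical. Adjustment was by Benjamini-Hochberg. The fit was tested on simulated data with known changes. Alternatives were pseudocount 10, every gene with a mean above 0, scaling to cytosolic ribosomal protein genes, quantile normalisation, other covariates and leaving out each library. edgeR 4.0.16 and DESeq2 1.42.0 were run on reads recovered for 7 libraries, all but stimulated CD8 with actinomycin D.

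For each contrast with at most 12 called members all are named, otherwise the 6 with the largest change in each direction, with members at the extremes of level, peak score and CD8 to Th2 difference. Members and lists were chosen with earlier results of these data known. GENCODE M21 annotated 76 of 77 members.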

Additional observations from a re-analysis of the deposited data

Results flagged for a closer look

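Mrpl28 differed between groups, since its change with stimulation, with actinomycin D minus without it, differed by -0.87 on the log2 scale (interaction, limma adjusted p = 0.0387). 2 values stood apart from the other libraries of their arm by Dixon's criterion for 4 samples, which chance meets in about 1 in 20 arms, among 72 arms examined. Mrpl1 had 759 normalised reads in resting Th2 cells with actinomycin D, and its nearest neighbour among the treated libraries had 896. Mrps25 had 905 normalised reads in stimulated Th2 cells without the drug, and its nearest neighbour among the untreated libraries had 605. The 4 libraries of an arm are different conditions and not repeats of 1 condition.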

How the results depend on the processing

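No paired analysis was possible because replicate numbers belong to the GCLiPP libraries, whose peak list holds no values per library. The blocks named here are matched conditions of the RNA-seq libraries, not replicate numbers. In order, values are members called unless all genes are named. With every gene of a mean above 0, 5 members rose with actinomycin D, no member was called in the interaction, and 0 (stimulation without the drug), 21 (stimulation over all libraries) and 940 genes (interaction) were called. With cytosolic ribosomal protein scaling, 0 members rose and 27 fell with the drug, 5 fell with stimulation, 0 differed between CD8 and Th2, and 15 were higher and 0 lower in the interaction, with 3583, 1486 and 4904 genes in the last 3 contrasts. Under this scaling the log2 changes with the drug turned to -0.019 for Mrpl10, -0.17 for Mrpl13, -0.20 for Mrpl24, -0.085 for Mrpl30, -0.41 for Mrps11, -0.068 for Mrps15, -0.039 for Mrps21 and -0.097 for Mrps24. Quantile normalisation gave 19 rises with the drug and 15 members higher in CD8 cells. Matched condition as a block gave 23 members and 4037 genes for CD8 against Th2, and 6 genes for stimulation over all libraries. Where treated libraries entered, edgeR and DESeq2 left out stimulated CD8 with the drug. With edgeR, 1 member rose with the drug, 0 differed between CD8 and Th2 and 0 in the interaction. It called 2186 (drug), 3 (stimulation over all libraries) and 321 genes (interaction). With DESeq2, 4 members rose with the drug and 5 were lower in the interaction, and 2030 (stimulation without the drug) and 428 genes (over all libraries) were called. As reported, 4245, 1238, 13, 2358 and 1591 genes were called for the drug, stimulation without it, stimulation over all libraries, CD8 against Th2 and the interaction. Leaving out 1 library at a time gave 0 to 11 rises and 7 to 11 falls with the drug (2220 to 4052 genes), 0 to 12 members for CD8 against Th2 (1466 to 2484 genes), 0 to 1 higher and 0 to 14 lower in the interaction (25 to 3315 genes), and 3 to 12 genes for stimulation over all libraries. Stimulation without the drug could not be fitted with a library left out, for want of residual degrees of freedom. 32 members had a peak of at least the median score, against 51 with any. The causes of these differences were not tested. No condition was repeated, and depth beyond gene totals and the peaks of each GCLiPP library were not analysed here.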
